A study of Mus musculus with 13 samples.

Results

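The RNA of 10 genes of the mitochondrial inner membrane organization was followed across DN3 and DN4 thymocytes of mice with and without floxed Opa1. They were Immt, Chchd3, Chchd6 and Apool of the MICOS complex, Samm50, Dnajc11, Mtx1 and Mtx2 of the outer membrane side, and the prohibitins Phb and Phb2. The genes were taken by name from the 47937 genes of the deposited count table, with no threshold on their counts, and all 10 were counted and passed the filter on low counts in every comparison.

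Cristae are the folds of the inner mitochondrial membrane that carry the respiratory chain. MICOS sits at the crista junction, the narrow neck that joins a crista to the inner boundary membrane, and binds the sorting and assembly machinery of the outer membrane, so that both membranes are held together in a bridging complex. Prohibitins form ring-shaped assemblies of alternating PHB and PHB2 in the inner membrane, where they hold proteases and shape the processing of OPA1, the dynamin-like GTPase that itself controls crista width.

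The cells were freshly sorted, untreated thymocytes of C57BL/6 mice, 6 weeks old by the submitters' description. Control mice were Wt;Lck-Cre+, called Wt here, and carried Cre but no floxed allele named in the labels. The others were Opa1fl/fl;Lck-Cre+, labelled OPA1 KO and called KO here, with both Opa1 alleles floxed. Cre was under the Lck promoter, which is active in T lineage cells from the DN stages on, so that both groups expressed the recombinase and deletion was limited to cells with an active Lck promoter. DN3 and DN4 are consecutive CD4-CD8- stages on either side of the checkpoint for a productive T cell receptor beta chain. One library of each stage came from KO45, KO49, KO51 (KO), WT05, WT46 and WT48 (Wt), and WT40 added a DN4 library, which made 13 libraries with 3 in each group but DN4 Wt, which had 4.

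The libraries held between 5926848 and 14148661 counts (median 10023044), and a member had between 41 and 3719 counts in a library. The shallowest was the DN3 library of WT05, in which ribosomal RNA-like genes took 27.1% of the total (those annotated as ribosomal RNA and a few added by name, such as Gm42418 and AY036118), against 0.347% to 1.38% in the others. Opa1 had 98.3 ± 11.7 CPM in DN3 Wt (SD, n = 3), 90.6 ± 2.79 in DN3 KO (n = 3), 89.0 ± 3.92 in DN4 Wt (n = 4) and 82.1 ± 5.52 in DN4 KO (n = 3), where CPM is the usual depth-scaled count, here on TMM-scaled library sizes. Counts over the whole gene cannot show the loss of a floxed exon, so in these counts the genotype rests on the labels. Genes of mtDNA took 0.592% to 0.761% of the counts in DN4 KO against 1.34% to 1.89% in DN4 Wt, and 0.914% to 1.28% in DN3 KO against 1.29% to 3.02% in DN3 Wt. The 3.02% was that of the shallow DN3 library of WT05, while those of WT46 and WT48 were at 1.49% and 1.29%. Il2ra, which encodes CD25 and defines DN3, changed from DN3 to DN4 by a log2 fold change of -6.39 in Wt (adjusted p = 1.64e-05) and of -6.01 in KO (adjusted p = 3.77e-04) by edgeR's quasi-likelihood test. The 7 DN3 markers, Il2ra among them, summed to 3134 to 4327 CPM in DN3, 801.9 to 1453 in DN4 Wt and 1235 to 2248 in DN4 KO. At an adjusted p under 0.05 in that test, 4 of the 7 were lower in DN4 in Wt (9.43% of all genes) and 5 in KO (7.34%). The 6 DN4 and DP (CD4+CD8+) markers summed to 140.5 to 253.8 CPM in DN3, 570.6 to 2148 in DN4 Wt and 1105 to 3362 in DN4 KO. All 6 were higher in DN4 in both genotypes (13.4% and 11.2% of all genes). Summed T lineage markers were at 4747 to 7287 CPM in the 13 libraries. The 8 B cell markers, all detected in every group, summed to between 21.6 and 57.5 CPM in DN3 and between 242.5 and 3084 CPM in DN4, and the 7 myeloid markers to between 55.9 and 73.9 CPM in DN3 and between 68.4 and 222 in DN4. The summed NK and innate level was at 239 to 326 CPM in DN3 and at 229 to 447 CPM in DN4, with 3 of its 6 genes at 0 in every library of DN3 Wt and 3 in every library of DN3 KO. The summed gamma delta T level was at 947 to 1785 CPM in DN3 and 707 to 2066 CPM in DN4. Erythroid sums were at most 1.42 CPM in DN3 and 6.19 CPM in DN4, and stromal sums were 112 to 189.8 CPM in DN3 and 119 to 246 CPM in DN4. Of the 6 stromal genes, 3 were at 0 in every library of DN3 Wt and 3 in every library of DN3 KO. Of the 6 erythroid genes these counts were 2 and 3. The part of these markers in the stage differences of the members was not tested. Over 20 counts of Y-linked genes were found in the libraries of WT40 and WT46 and in none of the 3 KO mice, so that the mice with such counts were all Wt.

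In MICOS, Immt encodes MIC60, the scaffold of the crista junction, and lies on chromosome 6 from 71831331 to 71877388 on the plus strand (GRCm38, GENCODE M21), with 15 exons in its principal transcript. Chchd3 encodes MIC19, the twin CX9C protein that links MIC60 to SAM50, and lies on the minus strand of chromosome 6 from 32790976 to 33060260, with 8 exons. Chchd6 encodes the related MIC25 and occupies 89383146 to 89595652 of the same chromosome and strand, also with 8 exons. Apool encodes MIC27, a cardiolipin-binding subunit, and is X-linked (112311334 to 112372755, plus strand, 9 exons).

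On the outer membrane side, Samm50 encodes the beta-barrel core of the sorting and assembly machinery (chromosome 15, 84192241 to 84217267, plus strand, 15 exons). Dnajc11 encodes a J-domain protein that associates with it (chromosome 4, 151933691 to 151982137, plus strand, 16 exons). Mtx1 and Mtx2 encode the metaxins, its cytosol-facing subunits. Mtx1 lies on the minus strand of chromosome 3 from 89209081 to 89227088 (8 exons), where its exons share 318 bases with Thbs3 and 759 bases with Gm43737 on the opposite strand, and Mtx2 on the plus strand of chromosome 2 from 74825803 to 74878431 (10 exons). Phb lies on the plus strand of chromosome 11 from 95666957 to 95680773 (7 exons) and Phb2 on the plus strand of chromosome 6 from 124712336 to 124716950 (10 exons).

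Stretches shared with other genes could take or lend reads for Phb more than for the other members. Of the 50-base stretches of Phb exons, 30.1% occurred in at least 1 other annotated gene, with 720 of 2755 in the processed pseudogene Gm7666, which held between 14 and 46 counts per library, and 290 in Fyb, a T cell adaptor gene with between 1279 and 5014 counts. The part of these reads in the Phb counts was not tested. The next highest share was 2.96%, for Phb2, and Chchd3, Chchd6, Apool and Mtx2 had 0 shared stretches.

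The promoters of Phb, Phb2, Chchd6 and Chchd3 are shown because Phb, Phb2 and Chchd6 were called lower in DN4 than in DN3 in at least one of the fits described below and Chchd3 was called in none of them. Dnajc11 was called lower in Wt too but is the member without a RefSeq window, and is named only. Each window holds 250 bases before and 50 bases after the start annotated by RefSeq on GRCm38.p6, written 5′ to 3′ on the strand of the gene. Capitals mark matches, on either strand, to motifs chosen after the sequences were read: CACGTG (E-box), CCGGAAG (ETS), TGCGCA (NRF1), ACTACAA (ZNF143 core) and GGGCGG (GC box). In Phb2 a pair of GC box matches lie side by side on opposite strands.
Phb, chr11:95666707-95667006, plus strand: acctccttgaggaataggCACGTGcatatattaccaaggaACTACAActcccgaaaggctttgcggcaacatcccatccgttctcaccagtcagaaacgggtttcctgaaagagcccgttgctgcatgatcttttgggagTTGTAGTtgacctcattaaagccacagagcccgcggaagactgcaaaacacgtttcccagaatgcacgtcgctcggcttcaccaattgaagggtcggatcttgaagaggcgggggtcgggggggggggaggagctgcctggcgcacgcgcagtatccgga
Phb2, chr6:124712039-124712338, plus strand: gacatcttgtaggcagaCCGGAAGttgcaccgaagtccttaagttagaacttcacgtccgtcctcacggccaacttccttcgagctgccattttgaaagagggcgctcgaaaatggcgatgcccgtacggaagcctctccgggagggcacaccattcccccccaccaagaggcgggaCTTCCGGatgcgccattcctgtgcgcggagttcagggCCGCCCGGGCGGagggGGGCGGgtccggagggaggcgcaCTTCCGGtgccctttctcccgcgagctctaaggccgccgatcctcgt
Chchd6, chr6:89595603-89595902, minus strand: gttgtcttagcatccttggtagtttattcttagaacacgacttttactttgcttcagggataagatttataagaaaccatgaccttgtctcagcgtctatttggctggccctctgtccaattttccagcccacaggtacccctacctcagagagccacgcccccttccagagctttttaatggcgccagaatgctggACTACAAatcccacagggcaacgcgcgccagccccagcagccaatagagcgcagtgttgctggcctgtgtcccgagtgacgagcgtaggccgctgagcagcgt
Chchd3, chr6:33060211-33060510, minus strand: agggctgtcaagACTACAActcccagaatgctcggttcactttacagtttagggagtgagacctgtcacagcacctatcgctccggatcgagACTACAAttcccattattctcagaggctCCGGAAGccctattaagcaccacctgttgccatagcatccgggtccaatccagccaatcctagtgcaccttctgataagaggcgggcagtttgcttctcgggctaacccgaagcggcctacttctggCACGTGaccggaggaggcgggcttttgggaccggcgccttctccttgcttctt

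RefSeq windows were at hand for 9 of the 10 members. ACTACAA was in 3 of the 9 (Phb and Chchd3 with 2 matches each, Chchd6 with 1) and in 3.24% of 32851 promoter windows of the same length. CACGTG was in 2 of the 9, Phb and Chchd3, against 7.15% of all windows. CCGGAAG was in 5 of the 9 (8.86% of all), with 3 matches in Phb2, GGGCGG in 5 of the 9 (35.7% of all) and TGCGCA in Immt alone of the 9 (7.76% of all). The 9 windows held between 10 and 32 CpG dinucleotides, against a median of 7 over all windows. As the motifs were chosen after these sequences were read, shares above those of all windows are a description and cannot show enrichment.

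The members spanned a wide range of levels. Per kilobase of the principal transcript, Phb2 was highest, at 202 CPM per kb as the mean of the 13 libraries, and Chchd3 followed at 120.3. Phb (58.5) and Immt (57.2) came next, then Dnajc11 (32.2), Mtx1 (30.8), Samm50 (26.3), Apool (15.5), Chchd6 (12.4) and Mtx2 (8.64). Phb2 was therefore at the percentile 97.9 of the 11505 genes ranked this way and Mtx2 at the percentile 39.9, with the median gene at 12.7 CPM per kb.

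Some neighbours in this order were not set apart. Phb was above Immt in 5 of 13 libraries, and the ranges of this pair over the 13 libraries overlapped, as did those of Dnajc11 and Mtx1, Mtx1 and Samm50, Apool and Chchd6, and Chchd6 and Mtx2. Phb2 was above Chchd3, Chchd3 above Phb, Immt above Dnajc11 and Samm50 above Apool in all 13 libraries, with no overlap.

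**Figure D1:**
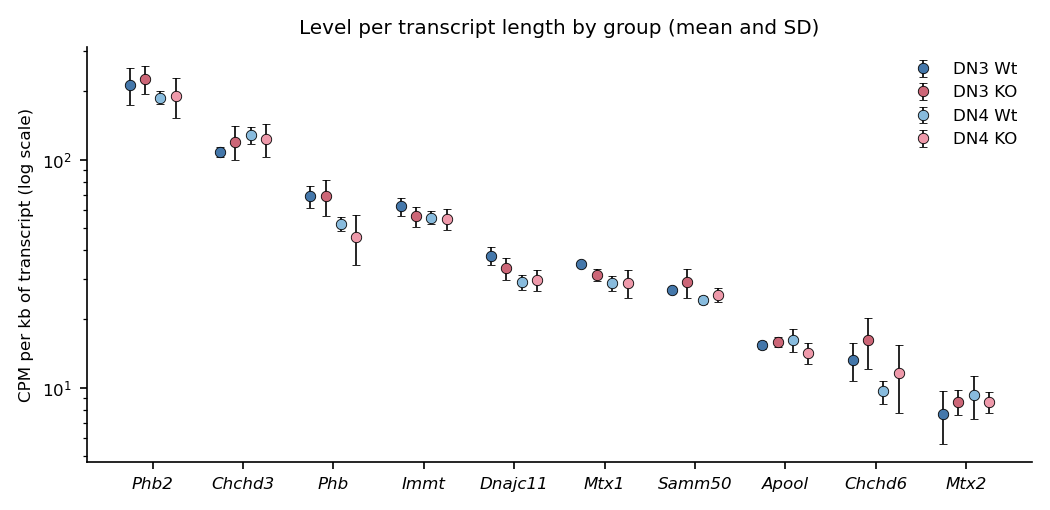
Level of the 10 genes per transcript length, on a log axis in CPM per kb of the principal transcript, as the mean and SD of the libraries of each of the 4 groups. Phb2 and Chchd3 stand above the other members in every group, and Phb and Immt lie close together, with group means of 45.8 to 69.0 and 54.9 to 62.3.

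Phb, one of the 2 prohibitins, had the smallest adjusted p of the members between the stages in both genotypes. In DN3 it was at 110.0, 125 and 138 CPM in WT05, WT46 and WT48 and at 98.9, 134 and 139.7 CPM in KO45, KO49 and KO51. In DN4 it was at 98.4, 96.0, 98.0 and 84.6 CPM in WT05, WT40, WT46 and WT48 and at 59.2, 91.4 and 96.7 CPM in the KO mice in the same order. Within each genotype no DN4 library reached the lowest DN3 library, although the highest DN4 value, in WT05, lay just under the lowest DN3 value, in KO45. The share of all genes whose stages did not overlap within a genotype was not counted, so separations of the stages are descriptions, here and below. In Wt, Phb was 0.745-fold as high in DN4 (95% interval 0.624 to 0.889, log2 fold change -0.42 ± 0.112 SE, adjusted p = 0.0265 by the quasi-likelihood test of edgeR, after Benjamini and Hochberg over 12691 genes). In KO the fitted fold was 0.656 (0.471 to 0.913), a log2 fold change of -0.61 ± 0.207 with an adjusted p of 0.0798 by the same test. With the mouse as a block, in a fit that also left out WT40, Phb in Wt was at -0.43 and not called (adjusted p = 0.111), as it was not when the library of WT40 alone was left out (-0.43, adjusted p = 0.0655). With the block Phb was called lower in KO (adjusted p = 7.73e-04), by the quasi-likelihood test of edgeR.

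Phb2, the partner of Phb in the prohibitin ring, had smaller fitted changes than Phb. It was at 222, 299 and 319.8 CPM in DN3 of WT05, WT46 and WT48 and at 228, 250.5, 267 and 239.8 CPM in DN4 of WT05, WT40, WT46 and WT48. The KO mice KO45, KO49 and KO51 had 248, 323 and 319.7 CPM in DN3 and 197, 257 and 297 CPM in DN4. The stages overlapped in both genotypes, and the low DN3 library of WT05 lay under all 4 DN4 Wt libraries. The log2 fold change was -0.21 ± 0.141 in Wt (adjusted p = 0.322) and -0.27 ± 0.172 in KO (adjusted p = 0.325) by edgeR's quasi-likelihood test. With the mouse as a block, Phb2 was called lower in KO (-0.28 ± 0.0869, adjusted p = 0.0323 by the same test) but not in Wt.

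Dnajc11, the J-domain protein of the bridging complex, was the other member called between the stages in Wt. Its DN3 values were 132, 112 and 114 CPM in WT05, WT46 and WT48, and its DN4 values 84.6, 86.6, 93.9 and 100.2 CPM in WT05, WT40, WT46 and WT48, with no overlap. The KO mice had 92.1, 109 and 115 CPM in DN3 and 82.6, 94.9 and 103 CPM in DN4, which overlapped. In Wt it fell to 0.752-fold (95% interval 0.630 to 0.897, log2 fold change -0.41 ± 0.111, adjusted p = 0.0298 by edgeR's quasi-likelihood test), and in KO the log2 fold change was -0.20 ± 0.126 (adjusted p = 0.324).

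In all, 2 of the 10 members were called lower in DN4 Wt than in DN3 Wt, where 9.43% of all genes tested were, and 0 of the 10 were called higher, where 13.4% of all genes were. With the mouse as a block over the 3 Wt mice that gave both stages, without WT40, 0 members were called lower (6.53% of all genes) and 0 higher (12.1% of all genes), with adjusted p = 0.111 for Phb and 0.146 for Dnajc11 by edgeR's quasi-likelihood test and log2 fold changes of -0.43 and -0.39. In KO, 0 of the 10 were called lower (7.34% of all genes) and 0 higher (11.2%) without the block. With the block over the 3 KO mice, 3 of the 10 were called lower, against 16.9% of all genes, and 0 higher, against 18.9%. Those 3 were Phb (-0.63 ± 0.0916, adjusted p = 7.73e-04), Phb2 (-0.28 ± 0.0869, adjusted p = 0.0323) and Chchd6 (-0.53 ± 0.173, adjusted p = 0.0404), by the same test in log2 units.

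The Wt calls depended on single libraries. Leaving out the DN3 library of WT46 or WT48, or the DN4 library of WT05, WT40 or WT46, left 0 members called, and leaving out the DN4 library of WT48 left 1, Dnajc11. In the 5 fits with 0 called the log2 fold change was between -0.44 and -0.34 for Phb, with adjusted p from 0.0528 to 0.110 in edgeR's quasi-likelihood test, and between -0.46 and -0.37 for Dnajc11, with adjusted p from 0.0603 to 0.0910, so that the fitted changes stayed near those with all libraries. Leaving out the shallow DN3 library of WT05 gave 4: Phb (-0.51, adjusted p = 0.0114), Dnajc11 (-0.34, adjusted p = 0.0400), Chchd6 (-0.62, adjusted p = 0.0379) and Phb2 (-0.36, adjusted p = 0.0350), as log2 fold changes in edgeR's quasi-likelihood test. All genes called in that fit numbered 3393, against 2903 with the library, and 1845 to 2561 when any other library was left out. Without the DN4 libraries of WT05 and WT48, the 2 of 4 with the higher B cell marker sums (1619 and 3084 CPM against 343.9 and 456.1 in WT40 and WT46), the log2 fold changes were -0.38 for Phb (adjusted p = 0.135) and -0.42 for Dnajc11 (adjusted p = 0.0937). In KO, leaving out the DN4 library of KO51 brought Phb to -0.76 with an adjusted p of 0.0419. Among KO DN4 libraries the B cell marker sums were 1070, 1833 and 242.5 CPM in KO45, KO49 and KO51. Their part in the stage differences was not tested, and in sorted bulk cells fewer cells of a type cannot be told apart from less RNA per cell.

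**Figure D2:**
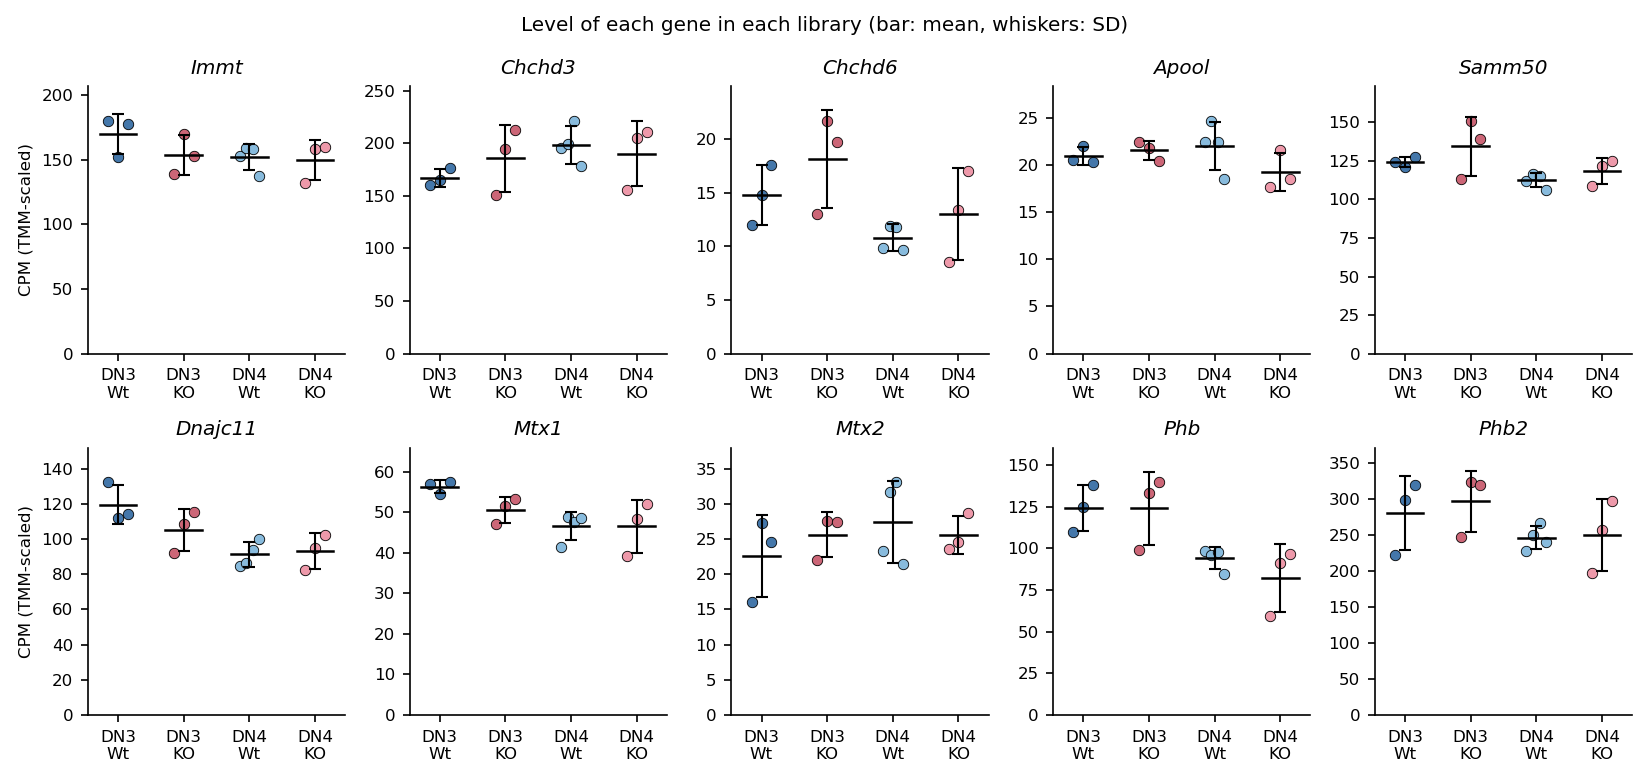
Level of each of the 10 genes in CPM on TMM-scaled library sizes, with 1 point per library, the mean as a bar and the SD as whiskers, in DN3 Wt (n = 3), DN3 KO (n = 3), DN4 Wt (n = 4) and DN4 KO (n = 3). Phb is at 98.9 to 139.7 CPM in DN3 and at 59.2 to 98.4 CPM in DN4, and for each gene the Wt and KO points of a stage overlap, except for Mtx1 in DN3, where 6.44% of all genes tested do not overlap.

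With all libraries of the groups in the fit, none of the 4 MICOS subunits was called between the stages without the block. Chchd6 was called in Wt when the DN3 library of WT05 was left out. Chchd6 was at 12.0, 14.8 and 17.6 CPM in DN3 of WT05, WT46 and WT48, the first of these from 41 counts, and at 9.83, 11.9, 11.8 and 9.64 CPM in DN4 of WT05, WT40, WT46 and WT48. In KO45, KO49 and KO51 it was at 13.03, 21.7 and 19.7 CPM in DN3 and at 8.52, 13.4 and 17.03 CPM in DN4. The lowest DN3 Wt value, 12.0 in WT05, lay just over the highest DN4 Wt value, and the KO stages overlapped. Its log2 fold change of -0.49 ± 0.186 in Wt had an adjusted p of 0.0949 and that of -0.50 ± 0.294 in KO an adjusted p of 0.280 by edgeR's quasi-likelihood test. With the mouse as a block, Chchd6 was called lower in KO (-0.53 ± 0.173, adjusted p = 0.0404 by the same test) but not in Wt.

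Chchd3, which shares the twin CX9C fold with Chchd6, had fitted changes above 0 that were not called. Its DN3 values were 160.1, 165 and 176 CPM in WT05, WT46 and WT48, and all 4 DN4 Wt libraries lay above them, at 195, 199, 221 and 178 CPM in WT05, WT40, WT46 and WT48. In the KO mice KO45, KO49 and KO51 it was at 150.5, 195 and 212 CPM in DN3 and at 155, 205 and 211 CPM in DN4, in the same order of mice at both stages. The log2 fold change was 0.22 ± 0.107 in Wt (adjusted p = 0.180) and 0.02 ± 0.165 in KO (adjusted p = 0.961) by edgeR's quasi-likelihood test.

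The ratio of both genes within a library does not depend on its scaling. There were between 8.97 and 13.3 counts of Chchd3 for each count of Chchd6 in the DN3 libraries and between 12.4 and 19.9 in the DN4 libraries, with means of 11.5 ± 1.69 in DN3 Wt, 18.4 ± 1.30 in DN4 Wt, 10.4 ± 1.32 in DN3 KO and 15.3 ± 2.92 in DN4 KO. The ratio was higher in DN4 than in DN3 in each of the 6 mice with both libraries. The smallest difference was in KO51, from 10.8 to 12.4, and its highest DN3 value, 13.3, was that of WT05 with its 41 counts of Chchd6. The count ratio of Phb2 to Phb was at 2.25 ± 0.200 in DN3 Wt, 2.62 ± 0.222 in DN4 Wt, 2.40 ± 0.109 in DN3 KO and 3.07 ± 0.258 in DN4 KO, and was likewise higher in DN4 in each of the 6 mice. No test was run on these ratios, which were chosen with the values known.

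**Figure D3:**
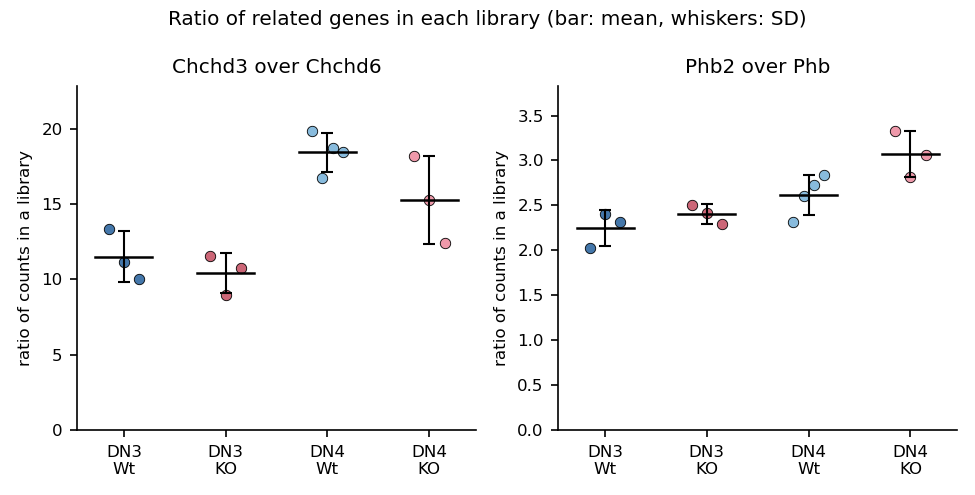
Ratio of counts of Chchd3 to Chchd6 (left) and of Phb2 to Phb (right) in each of the 13 libraries, with the mean as a bar and the SD as whiskers. The Chchd3 to Chchd6 ratio is at 8.97 to 13.3 in DN3 and at 12.4 to 19.9 in DN4, and the Phb2 to Phb ratio at 2.02 to 2.51 in DN3 and 2.32 to 3.33 in DN4.

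Immt and Apool, the scaffold and the cardiolipin-binding subunit, did not pass the test at any stage comparison. Immt ranged from 152 to 180.0 CPM in DN3 Wt, 139 to 169.9 in DN3 KO, 138 to 159 in DN4 Wt and 132 to 159.7 in DN4 KO, with log2 fold changes of -0.19 ± 0.107 in Wt and -0.06 ± 0.123 in KO. Apool ranged from 20.4 to 22.0 CPM, 20.4 to 22.4, 18.6 to 24.7 and 17.7 to 21.6 in the same order of groups, with log2 fold changes of 0.04 ± 0.143 and -0.19 ± 0.155. The stages of both genes overlapped in each genotype.

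Among the outer membrane members, Mtx1 was at 57.1, 54.4 and 57.4 CPM in DN3 of WT05, WT46 and WT48 and at 41.5, 48.8, 47.7 and 48.5 CPM in DN4 of WT05, WT40, WT46 and WT48, without overlap. In KO45, KO49 and KO51 it was at 47.1, 51.5 and 53.4 CPM in DN3 and at 39.2, 48.4 and 52.0 CPM in DN4, with overlap. The Wt log2 fold change of -0.30 ± 0.107 had an adjusted p of 0.0825 and the KO one of -0.14 ± 0.134 an adjusted p of 0.492 by edgeR's quasi-likelihood test. Whether the counting used the strand is not given in the sources used here, so the part of the Mtx1 counts that came from Thbs3 and Gm43737 was not tested.

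Samm50, the channel that Mtx1 and Mtx2 flank, was at 121 to 127 CPM in DN3 Wt, 113 to 151 in DN3 KO, 106 to 116 in DN4 Wt and 109 to 125 in DN4 KO, with log2 fold changes of -0.17 ± 0.0892 in Wt (adjusted p = 0.219) and -0.20 ± 0.126 in KO (adjusted p = 0.309) by edgeR's quasi-likelihood test. Its stages did not overlap in Wt and overlapped in KO. Mtx2 varied more between libraries, at 16.1 to 27.3 CPM, 22.0 to 27.5, 21.5 to 33.0 and 23.6 to 28.7 in the same order, with log2 fold changes of 0.23 ± 0.229 and -0.02 ± 0.151 and overlap of the stages in both genotypes.

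Within the 6 mice that gave both stages, Phb, Chchd6, Samm50, Dnajc11 and Mtx1 were lower in DN4 in 6 of 6 and Phb2 in 5 of 6, while Chchd3 was higher in 5 of 6. Of all 13361 genes past the filter, 17.6% were lower in DN4 in 6 of 6 mice and 21.9% higher in 6 of 6. Immt and Apool were lower in 4 of 6 each and Mtx2 in 2 of 6. For Phb the log2 difference within a mouse ran from -0.74 in KO45 to -0.16 in WT05, and for Chchd6 from -0.87 in WT48 to -0.21 in KO51. For Dnajc11 it was -0.64 in WT05 but between -0.25 and -0.16 in the other 5 mice. The mouse WT05, whose DN3 library was the shallow one, was at an extreme of the 6 for Mtx1 (-0.46), Mtx2 (0.54), Phb2 (0.037) and Apool (0.13) too.

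**Figure D4:**
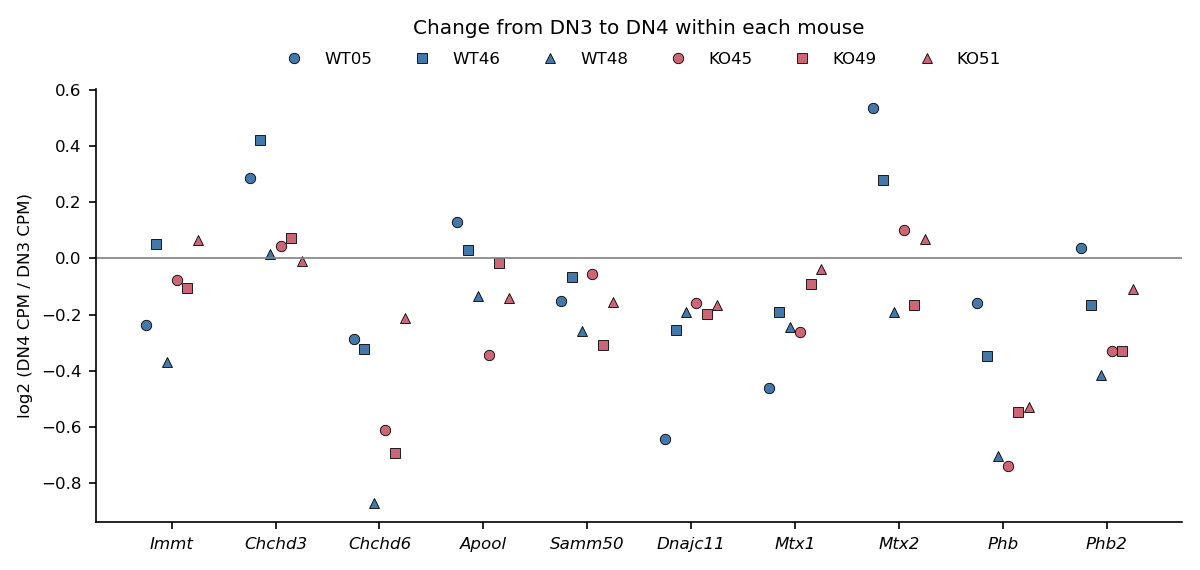
Log2 ratio of the DN4 to the DN3 CPM of each gene in the 3 Wt mice (blue) and the 3 KO mice (red) with both libraries. All 6 points of Phb, Chchd6, Samm50, Dnajc11 and Mtx1 lie under 0, and 5 of 6 points of Chchd3 lie above it.

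Over the 10 members, the median log2 fold change between the stages was -0.20 in Wt, with 7 below 0, against a median of -0.03 over all genes tested, 52.7% of which were below 0. In KO it was -0.19, with 9 of 10 below 0, against -0.02 over all genes, with 52.5% below 0. Scaling by library totals, which the ribosomal RNA of the DN3 library of WT05 enters, moved the median of all genes in the Wt comparison by 0.19, and relative to that median the members stood at -0.19, against -0.17 with TMM. The members were chosen for shared structures, and their levels are not independent of each other.

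Between the genotypes the data did not set any member apart. In DN4, 0 of 10 members were called, against 0.0535% of 13084 genes (7 genes), and in DN3 0 of 10, against 0% of 12105 genes. At an unadjusted p under 0.05 there were 0 members in either stage by edgeR's quasi-likelihood test, with 715 of all genes in DN4 and 168 in DN3, and DESeq2 called 0 members in both stages, with 53 of all genes in DN4 and 1 in DN3. The smallest adjusted p of a member was 0.919 in DN4, for Chchd6, and all 10 were at 1 in DN3.

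Chchd6 had the largest fitted difference, higher in KO by a log2 fold change of 0.29 ± 0.234 in DN4 and of 0.27 ± 0.243 in DN3. The 95% intervals of its fold ran from 0.843 to 1.78 in DN4 and from 0.818 to 1.77 in DN3, and its KO and Wt libraries overlapped at both stages. Immt was the closest to no difference in DN4, at a fold of 1.01 (0.854 to 1.19), and Phb in DN3, at 0.992 (0.764 to 1.29). For Phb in DN4, where KO45 lay far under the rest at 59.2 CPM, the fold was 0.892 (0.689 to 1.16), and for Phb2 it was 1.04, with a 95% interval of -0.27 to 0.38 on the log2 scale.

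For the other members the fold in DN4 lay between 0.893 for Apool (0.715 to 1.11) and 1.08 for Samm50 (0.935 to 1.24), and in DN3 between 0.878 for Dnajc11 (0.702 to 1.10) and 1.11 for Mtx2 (0.792 to 1.55). Over all 10 members no bound of a 95% interval exceeded 0.83 log2 units in DN4 or 0.82 in DN3. In DN4 the KO and Wt libraries overlapped for all 10 members, where 7.08% of the genes tested did not overlap, and in DN3 for all but Mtx1, where 6.44% did not. Mtx1 in DN3 was at 47.1 to 53.4 CPM in KO and at 54.4 to 57.4 CPM in Wt, with a fold of 0.896 (0.739 to 1.09) and an unadjusted p of 0.225 by edgeR's quasi-likelihood test. Scaling by library totals turned its log2 fold change from -0.16 to 0.084, while that of all genes moved by 0.24. The median log2 fold change of the members was 0.02 in DN4 and 0.05 in DN3, against 0.0023 and -0.0053 over all genes.

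**Figure D5:**
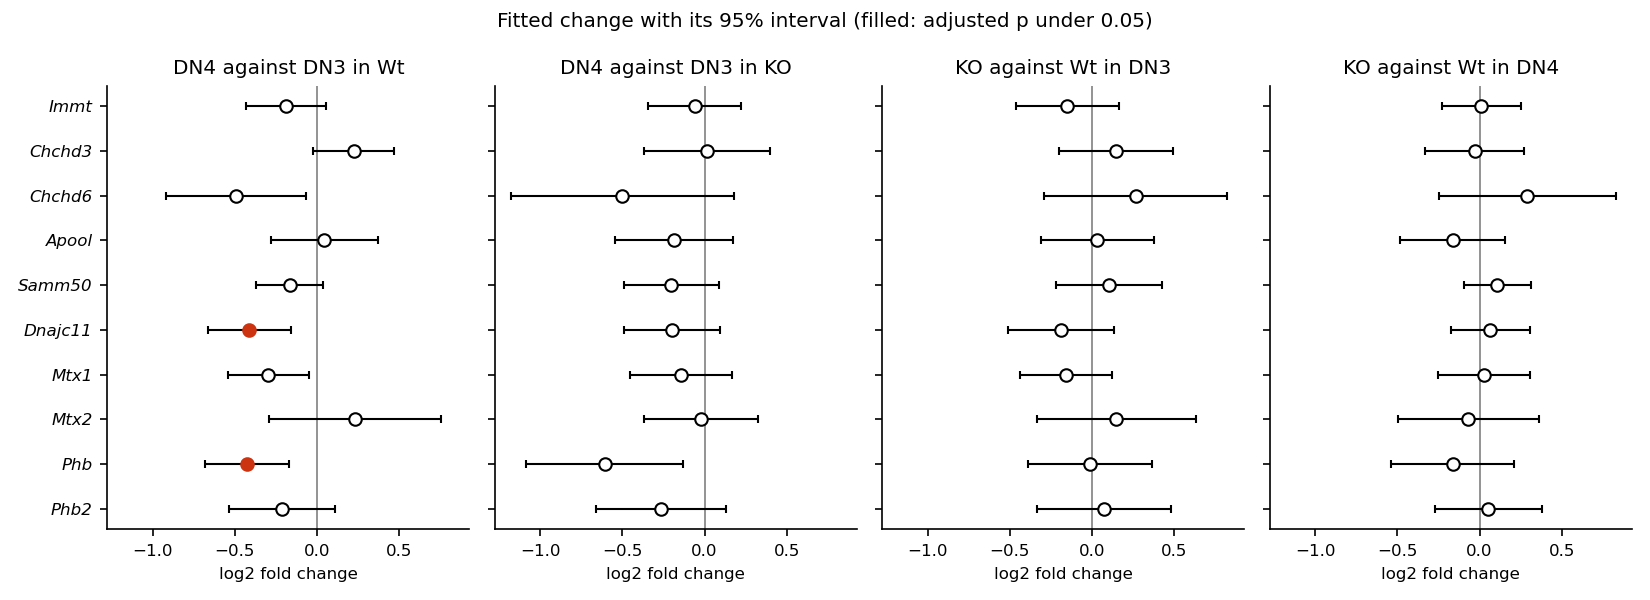
Fitted log2 fold change and its 95% interval for each of the 10 genes in the 4 comparisons, from edgeR's quasi-likelihood test without a block. Filled points passed an adjusted p of 0.05, which were Phb and Dnajc11 between the stages in Wt. In both comparisons of KO with Wt every interval includes 0.

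The stage difference itself was compared between the genotypes by an interaction over all 13 libraries. There, 0 of 10 members were called, against 0% of 13361 genes, and 0 were called with the mouse as a block over 12 libraries, with smallest adjusted p-values of 1 and 0.901 by edgeR's quasi-likelihood test. At an unadjusted p under 0.05 there were 0 members and 480 of all genes, or 685 with the block. The fitted difference was largest for Mtx2, at -0.26 ± 0.292 log2 units, and for Phb it was -0.19 ± 0.246 (95% interval -0.72 to 0.34). The stage calls made in Wt for Dnajc11 (0.21 ± 0.169 in the interaction without the block) and in KO with the block for Phb (-0.20 ± 0.174 in the interaction with the block), Chchd6 (-0.0028 ± 0.272) and Phb2 (-0.073 ± 0.167) were thus not shown to differ between the genotypes.

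Related genes of the same structures were taken as lists with 36 genes in all, of which 35 passed the filter. Of 5 other MICOS and bridging complex genes, Mtx3, a metaxin of the same family as Mtx1, was lower in DN4 in both genotypes. It went from 44.6 ± 5.19 CPM (SD, n = 3) to 29.7 ± 4.18 (n = 4) in Wt, a log2 fold change of -0.61 ± 0.153 (adjusted p = 0.0223), and from 45.7 ± 3.21 (n = 3) to 29.0 ± 3.45 (n = 3) in KO, one of -0.68 ± 0.131 (adjusted p = 0.0102), by edgeR's quasi-likelihood test. With the block these were at adjusted p = 0.0839 and 0.00194. Minos1, which encodes MIC10, 2410015M20Rik (MIC13), Apoo (MIC26) and Armc1 did not pass without the block, with log2 fold changes of -0.01, -0.11, -0.15 and 0.09 in Wt and -0.05, -0.37, -0.27 and -0.24 in KO. With the block 2410015M20Rik was lower in KO (-0.36 ± 0.117, adjusted p = 0.0378).

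Of 8 prohibitin partners and inner membrane proteases, 1 was lower in Wt, C1qbp, which encodes a matrix protein (-0.56 ± 0.146, adjusted p = 0.0254), and 0 in KO. With the block C1qbp was lower in both (adjusted p = 0.0387 and 0.00192) and Stoml2, whose product binds prohibitins and cardiolipin, in KO (-0.40 ± 0.103, adjusted p = 0.0148), all by edgeR's quasi-likelihood test. Of 4 genes of OPA1 and intermembrane space import, Chchd4, the oxidoreductase that imports twin CX9C proteins such as MIC19, was lower in Wt (-0.57 ± 0.139, adjusted p = 0.0194) without the block but not with it (-0.60 ± 0.184, adjusted p = 0.0612). In KO it was called with the block (-0.81 ± 0.124, adjusted p = 0.00102) but not without it (-0.78 ± 0.277, adjusted p = 0.0895), by edgeR's quasi-likelihood test. Opa1 differed by -0.16 ± 0.108 in Wt and -0.17 ± 0.102 in KO and was not called.

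Of the 6 tested genes of the outer membrane translocase (TOM), 1 was lower in Wt (Tomm40, the channel, -0.43 ± 0.118, adjusted p = 0.0329) and 1 in KO (Tomm70a, a receptor, -0.43 ± 0.117, adjusted p = 0.0376), and with the block 0 in Wt and 5 in KO by edgeR's quasi-likelihood test. The 5 ATP synthase dimer subunits and the 7 genes of cardiolipin synthesis and transport had 0 called in either genotype without the block, and 3 and 1 lower in KO with it. The block raised the share of all genes called lower in KO from 7.34% to 16.9%, so these counts are to be read against that share. None of these 6 lists held a gene called higher in DN4, a gene called between the genotypes or one called in the interaction. Their median log2 fold changes in Wt ran from -0.25 for TOM to -0.06 for the prohibitin partners, and in KO from -0.32 for TOM to -0.12 for the cardiolipin genes.

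The members also correlated with each other among libraries. Over 45 pairs of members, Pearson's r of log2 CPM across the 13 libraries had a median of 0.474 and was above 0 in 40 pairs, or in 44 with the DN3 library of WT05 left out. The median was 0.282 within the 6 DN3 libraries and 0.651 within the 7 DN4 libraries. Over all pairs of the 13361 genes past the filter 49.8% had r above 0 across the 13 libraries. Stage, mouse and scaling are shared by these points, and their part in the members' r was not tested. Chchd6 and Phb2 were the closest pair (r = 0.927), followed by Samm50 with Chchd6 (0.913) and Dnajc11 with Mtx1 (0.899). Phb and Phb2 had r = 0.832, or 0.914 without the DN3 library of WT05, and Apool had the weakest best partner, Phb at 0.390. KO45 was the lowest of the 3 KO mice for 9 of the 10 members in DN3 and for 10 of 10 in DN4. Of all 13361 genes, 38.4% were lowest in KO45 among the KO libraries of DN3 and 37.7% among those of DN4.

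The genes past the filter whose log2 CPM was most like the mean standardised log2 CPM of the members, among 13351 genes over the 13 libraries, were Eif5a (r = 0.985), Ppa1 (0.981), Tmem97 (0.980), Ranbp1 (0.979) and Prmt1 (0.978). Within the 6 DN3 libraries these r were 0.931 to 0.996 and within the 7 DN4 libraries 0.964 to 0.997. All points share the libraries and their scaling, the mouse ties 6 pairs of them, and the values are descriptions over 13 libraries. Mki67, a marker of dividing cells, had a log2 fold change between the stages of -0.75 ± 0.488 in Wt (adjusted p = 0.312) and 0.56 ± 0.194 in KO (adjusted p = 0.0835) by edgeR's quasi-likelihood test. Over the 8 listed cell cycle genes the median was 0.069 in Wt and 0.21 in KO, with 0 called, and with the block 0 were called in Wt and 2 higher in KO. Eif5a encodes a translation factor, Ppa1 a pyrophosphatase, Ranbp1 a regulator of nuclear transport and Prmt1 an arginine methyltransferase.

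The spread left after the group means was small for most members. The biological coefficient of variation was lowest for Samm50 (0.117), Mtx1 (0.119), Immt (0.122) and Dnajc11 (0.123) and highest for Chchd6 (0.229) and Mtx2 (0.189), against a median of 0.189 over 13361 genes. Phb and Phb2 were at 0.167 and 0.162. Chchd6, which had the lowest count of any member in a library, was also the member with the widest interval in every comparison without the block except that of the stages in Wt, where Mtx2 had it.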

How the data were processed

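RNA was prepared by the authors with RNeasy kits and a stranded TruSeq mRNA protocol, and sequenced on an Illumina HiSeq. The deposited values are raw counts per gene, made by the authors with Cutadapt, STAR and featureCounts on mm10, with DESeq2 and deepTools also named in the submitters' processing notes. Tool versions, the annotation and the strand setting of the counting are not given in the sources used here, so overlapping genes on opposite strands cannot be told apart. The table held 47937 genes in 13 libraries, with 0 unused columns.

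Columns were joined to mouse, stage and genotype by their names. The groups of a comparison, and no others, entered its fit with edgeR 4.0.16 in R 4.3.3 (filterByExpr with a minimum count of 10, TMM, quasi-likelihood test), and p-values were adjusted over all genes tested at 0.05 by the Benjamini-Hochberg method. The fit of the stages in Wt without the block was tested on simulated counts, with changes larger than those of the members. The other fits were not tested in this way. Of the 15 pairs of libraries within a group, none agreed within sampling noise (smallest chi-square per degree of freedom 6.19). Mouse numbers in the sample names pair the stages, and the deviations of the libraries of 1 mouse from their group means correlated at 0.124 to 0.460 over 13361 genes, so fits with the mouse as a block are given where they changed a call. DESeq2 1.42.0 and voom of limma 3.58.1 served as other tools. Scalings, filters, thresholds, the libraries in the fit and the block were also varied. Levels per kb use the principal transcript of GENCODE M21 on GRCm38, in which 47224 gene identifiers were found, and promoters are from RefSeq.

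The members were taken by name for their known roles, and both they and the lists were chosen with earlier results of these data known. Named are the 10 members, all other MICOS and bridging genes, Opa1, the 5 genes most like the members, each member's closest partner, and Mki67 and Il2ra. Of the other cristae, inner membrane and import lists, the genes called between the stages without the block are named, and Stoml2, called with it only. The remaining genes called only with the block are counted but not named.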

Additional observations from a re-analysis of the deposited data

Results flagged for a closer look

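Mtx1 was at 41.48 CPM in the DN4 Wt library of WT05, while the DN4 Wt libraries of WT40, WT46 and WT48 lay between 47.7 and 48.8 CPM. The gap to the nearest library was 0.854 of the range of the group, past the 95% limit of Dixon's test for 4 samples. The test was run on the 10 members in DN4 Wt, the only group with 4 libraries, and chance alone passes it in about 1 of 20 groups. Without this library the log2 fold change of Mtx1 from DN3 to DN4 in Wt was -0.24 (adjusted p = 0.189 by the quasi-likelihood test of edgeR), against -0.30 with it.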

How the results depend on the processing

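Of 910 values of a member under an alternative, 55 changed sign, and 0 of these belonged to a member called in its comparison. Reading limits are set by 3 or 4 mice a group, by 41 to 3719 counts per member and library, and by the DN3 library of WT05.

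The number of members called between the stages in Wt, 2, was 0 with library totals, without a filter beyond 1 count, with the mouse as a replicate block (a fit that also left out WT40, which alone gave 0), at a log2 fold change of at least 1 and without the DN4 libraries of WT05 and WT48 (a choice made after seeing the data). It was 1 with all 13 libraries in 1 fit, 4 at an adjusted p under 0.1 and 0 to 4 when 1 library was left out. In KO the number, 0, was 1 without the filter, by DESeq2, with all 13 libraries in 1 fit and at an adjusted p under 0.1, 3 with the block and 0 to 1 when 1 library was left out. With the block no other call of a member changed. The number was 0 in every fit of the genotypes and of the interaction.

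With library totals the median of the members went to 0.26 between the genotypes in DN3, to -0.032 between the stages in Wt and to -0.21 in the interaction, where that of all genes moved by 0.24, 0.19 and -0.18. The log2 fold changes then turned for Immt (0.10), Dnajc11 (0.079), Mtx1 (0.084) and Phb (0.20) between the genotypes in DN3, for Immt (0.015) and Samm50 (0.019) between the stages in Wt, and for Immt (-0.083), Dnajc11 (-0.0043) and Mtx1 (-0.045) in the interaction. Leaving 1 library out, the interaction median lay between -0.20 and 0.054.

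Between the genotypes in DN4, Immt turned with DESeq2's size factors (-0.0017), without the filter (-0.0030), with all 13 libraries in 1 fit (-0.020) and without the DN4 libraries of WT05 and WT48 (-0.076). Mtx1 turned in both of the last settings (-0.0030 and -0.047) and Phb2 in the last (-0.043). Chchd3 (0.068) and Mtx2 (0.23) turned without the mice with Y-linked counts. In DN3, Phb was at 0.0044 without the filter, and between the stages in Wt Apool was at -0.019 with the block.

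Leaving 1 library out, the log2 fold change between the genotypes in DN4 ran from -0.10 to 0.086 for Chchd3, -0.28 to 0.017 for Phb, -0.047 to 0.084 for Immt, -0.046 to 0.13 for Mtx1, -0.075 to 0.19 for Phb2 and -0.18 to 0.033 for Mtx2. In DN3 it ran from -0.0024 to 0.072 for Apool, -0.10 to 0.13 for Phb, -0.021 to 0.30 for Mtx2 and -0.063 to 0.19 for Phb2. Between the stages it ran from -0.013 to 0.11 for Apool in Wt, and in KO from -0.11 to 0.11 for Chchd3 and -0.13 to 0.011 for Mtx2. In the interaction it ran from -0.25 to 0.22 for Chchd6, -0.15 to 0.055 for Samm50, -0.20 to 0.10 for Phb2 and -0.33 to 0.00045 for Phb. The cause of these changes was not tested.

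Of all genes, 7 were called between the genotypes in DN4, 11 without the filter or without the DN4 libraries of WT05 and WT48, 53 by DESeq2, 1 without the mice with Y-linked counts, 2 without KO45 and 0 without KO49, KO51, WT05, WT40 or WT46. In DN3 the 0 became 1 without the filter, by DESeq2 and without the library of WT46, the 1 DN3 Wt library with Y-linked counts. Between the stages, 2903 in Wt became 1782 with library totals, 1766 without the DN4 libraries of WT05 and WT48 and 1724 at a log2 fold change of at least 1, and 2338 in KO became 4499 with the block and 1385 at that size of change. Leaving out the DN3 library of WT46 or WT48 or the DN4 library of WT05 gave 1845 to 1918 in Wt, and leaving out the DN3 library of KO49 or KO51 or the DN4 library of KO49 gave 1407 to 1522 in KO.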
